A study of Mus musculus with 6 samples.

Results

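The genes examined here were 5 Toll-like receptors (Tlr1, Tlr4, Tlr6, Tlr7 and Tlr9) and 4 of their partners (Cd180, Ly86, Unc93b1 and Myd88), taken by name from the 12431 genes of the count table. All 9 were in the table and 8 of them held enough reads to be tested, with Tlr9 under the count filter. RNA was sequenced from follicular B cells, sorted from mouse spleen as CD23+ and CD21/35-, after 1 h in culture medium with serum and without a stimulus. All mice were adult males. The 3 WT libraries came from Gpr174+/Y mice and the 3 KO libraries from Gpr174-/Y mice, in which a tdTomato reporter stands in for the single coding exon. Gpr174 is on the X chromosome and encodes a G protein-coupled receptor. The Gpr174-/Y mice lack the receptor in all of their cells and not in B cells alone. The question was which of these receptors and partners differ in RNA level between WT and KO B cells.

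Toll-like receptors are membrane proteins that bind molecules of microbes and, in B cells, help to set activation, proliferation and antibody secretion. TLR1 and TLR6 act at the cell surface together with TLR2, and TLR4 acts there with the secreted protein MD-2. TLR7 and TLR9 bind RNA and DNA inside endosomes, to which the multipass protein UNC93B1 carries them. CD180 (RP105) resembles the outer portion of TLR4 but lacks the signalling domain of the family. It reaches the B cell surface bound to MD-1, the product of Ly86, and its ligation by antibody drives B cells into activation. MyD88 is the cytoplasmic adaptor that most receptors of the family use.

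The libraries held 8452460 to 10944833 counted reads, and 10514 genes were tested. Gpr174 itself was still counted in KO libraries, between 99.8 and 100.2 CPM (the reads of a gene scaled by its library's total after adjustment by the TMM factor), and between 121.5 and 135.9 CPM in WT. Gpr174 passed the test, higher in WT (log2 fold change 0.35, edgeR adjusted p = 0.03585). Its reads come from the 3′ ends of transcripts, which can lie outside the replaced coding sequence, so that they do not check the genotype. On a principal component analysis of the 500 most variable genes, WT replicate 2 stood apart, with a score of 32.5 on the first component, which held 40% of the variance, while the other 5 libraries scored between -8.18 and -4.33. The 7 markers of follicular B cells, such as Ms4a1 and Fcer2a, were all present, at a summed level of 3976 to 4132 CPM in WT and 4570 to 4678 CPM in KO. The 6 markers of marginal zone B cells summed to 273.1 to 305.8 CPM over all libraries, with 0 of 6 called. The 7 myeloid markers summed to 44.6 to 62.6 CPM in WT and 41.3 to 45.2 CPM in KO, those of plasmacytoid dendritic cells to 35.8 to 44.4 CPM over all libraries with Siglech and Klk1 absent from the table, those of T cells to 5.10 to 13.6 CPM and those of plasma cells to 103.5 to 126.5 CPM. The 3 NK cell markers in the table summed to 7.04 to 10.9 CPM in WT and, without overlap, to 5.17 to 5.64 CPM in KO, with Gzma at 5.60 CPM ± 1.01 and 2.62 CPM ± 0.266 (SD, n = 3 each; edgeR adjusted p = 0.235) and 0 called. The part of these cells in the results below was not tested. Some of these sums came mostly from 1 gene. These were Pacsin1 for plasmacytoid dendritic cells (30.09 to 39.47 CPM), Xbp1 for plasma cells (71.45 to 84.47 CPM) and Dtx1 for marginal zone B cells (190.2 to 221.6 CPM). Of the 4 erythroid markers, Hba-a1 and Hbb-bt were absent from the table. The other 2 summed to 2674 to 4707 CPM in WT and 3007 to 7549 CPM in KO, nearly all of it from Hbb-bs (2649 to 7449 CPM over all libraries).

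Tlr1 (chromosome 5, 64924679 to 64933563, minus strand, mm10) and Tlr6 (chromosome 5, 64952031 to 64960097, minus strand) are neighbours and close relatives, and parts of their transcripts are identical. The longest such stretch, which is coding in both, is shown because a read inside it belongs to both genes and cannot be given to either. It has 229 bases and lies at chr5:64925537-64925765 in Tlr1 and at chr5:64953828-64954056 in Tlr6, both on the minus strand of GRCm38.
Tlr1 and Tlr6, shared coding stretch: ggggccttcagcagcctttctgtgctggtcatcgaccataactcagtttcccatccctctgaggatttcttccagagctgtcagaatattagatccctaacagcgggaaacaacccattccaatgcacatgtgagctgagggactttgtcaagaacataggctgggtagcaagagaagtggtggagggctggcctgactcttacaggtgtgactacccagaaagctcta
Of all 50-base windows along the transcript, 15.3% in Tlr1 and 12.6% in Tlr6 also occurred in another gene, which is more than this stretch alone holds. It sits 858 bases from the 3′ end of the Tlr1 transcript and 1797 bases from that of Tlr6. In the last 500 bases, where reads of this kind gather, 0% of the windows of Tlr1 and 0.443% of those of Tlr6 were shared. The other 7 genes held shared windows only in Myd88, 9.16% of them, with Acaa1a on the opposite strand.

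Of the 9 genes, Cd180 was the one called, and it was lower in WT cells. Cd180 (chromosome 13, 102693558 to 102739629, plus strand) was at 54.3, 49.9 and 73.8 CPM in WT replicates 1 to 3, and at 83.0, 86.2 and 87.5 CPM in KO replicates 1 to 3. Every WT library was below every KO library, and the WT values were spread more widely than the KO values. WT libraries averaged 59.3 CPM ± 12.8 and KO libraries 85.6 CPM ± 2.33 (SD, n = 3 each), and WT cells thus held 69.3% of the KO level. The log2 fold change, WT over KO, was -0.53 ± 0.12 (SE), with a 95% interval of -0.78 to -0.28 and an edgeR quasi-likelihood adjusted p of 0.0159. In these bulk libraries, fewer cells that express a gene and less of its RNA per cell cannot be told apart.

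The call depended on which libraries were in the fit. In all 9 alternatives that kept them, Cd180 stayed called, with adjusted p between 0.00585 and 0.0287. With 1 library left out at a time, the log2 fold change stayed between -0.72 and -0.42, and the call was kept without WT replicate 3 (edgeR adjusted p = 0.00215) and lost in the other 5 fits. The adjusted p of edgeR was 0.0841 without WT replicate 1, 0.0724 without WT replicate 2, 0.0572 without KO replicate 1, 0.0805 without KO replicate 2 and 0.127 without KO replicate 3. WT replicate 2, the library apart on the first principal component, had the lowest Cd180 level, and WT replicate 3 had the highest level in its group.

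**Figure D1:**
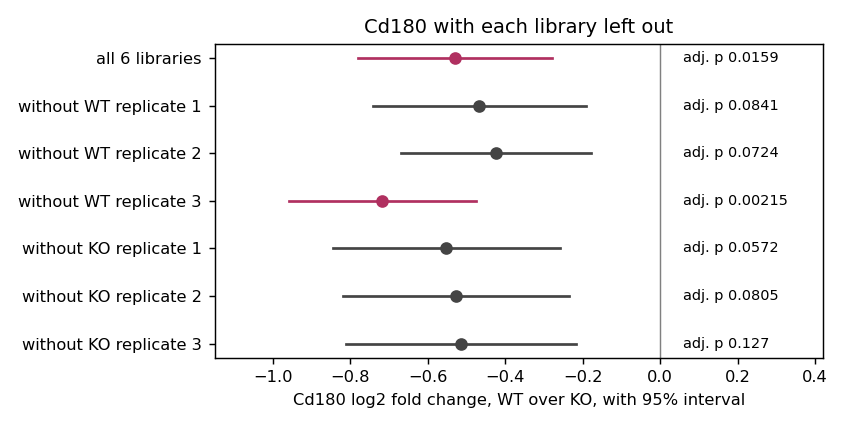
Cd180 log2 fold change, WT over KO (points), with its 95% interval (lines), in the fit to all 6 libraries and with each library left out, and the edgeR adjusted p at the right (red where it was under 0.05). All 7 intervals lie below 0, and the adjusted p was under 0.05 in the fit to all 6 libraries and without WT replicate 3.

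Ly86 (chromosome 13, 37345208 to 37419036, plus strand), which encodes the partner that CD180 needs at the surface, did not pass the test. It was at 74.0, 86.1 and 68.5 CPM in WT and at 72.1, 79.3 and 64.4 CPM in KO, and the groups overlapped. WT libraries averaged 76.2 CPM ± 9.02 and KO libraries 71.9 CPM ± 7.41 (SD, n = 3 each), and the log2 fold change of 0.08 had a 95% interval of -0.15 to 0.31 (edgeR adjusted p = 0.836). Set against each other within a library, which removes the scaling to library size, there were 0.733, 0.579 and 1.08 reads of Cd180 per read of Ly86 in WT, and 1.15, 1.09 and 1.36 in KO. No WT library reached the lowest KO ratio, and the mean log2 ratio of WT minus that of KO was -0.63. With 3 against 3 libraries the exact permutation test, two-sided, cannot give a p under 0.1, and it gave 0.1 here (0.3 after adjustment over 3 ratios).

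The summed level of the 7 follicular B cell markers was, like that of Cd180, lower in every WT library. For 4 of the 7 the groups did not overlap, with WT lower, while Cd79a (log2 fold change 0.05, edgeR adjusted p = 0.929) and Pax5 (0.18, edgeR adjusted p = 0.86) had values above 0 and overlapping groups. Among all tested genes, 8.28% had groups without overlap and WT lower, and 1.82% were called. One of the 7 was called: Cd79b, a signalling chain of the B cell receptor, was lower in WT, at 736 CPM ± 22.2 (SD, n = 3) against 964 CPM ± 45.5 (SD, n = 3). Cd180 was therefore also counted against the sum of these 7 markers in the same library. There were 0.0136, 0.0125 and 0.0179 reads of Cd180 per marker read in WT, and 0.0179, 0.0189 and 0.0187 in KO. WT replicate 3 fell just short of KO replicate 1, and the difference of mean log2 ratios was -0.35 (exact permutation p = 0.1, the smallest possible). Division by a sum that is itself lower in WT makes this difference smaller, so that the ratio is no neutral measure of B cell content. The part of the markers in the Cd180 difference was not tested beyond this ratio, which was added after the data had been seen.

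**Figure D2:**
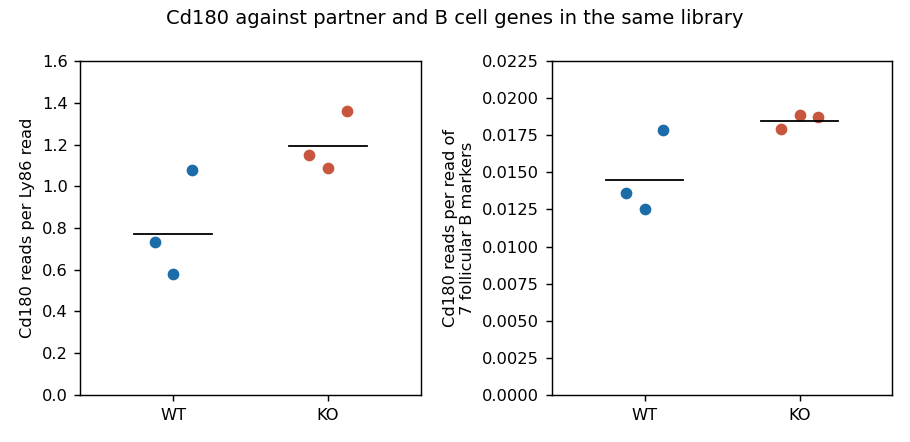
Reads of Cd180 per read of Ly86 (left) and per read of the 7 follicular B cell markers together (right) in each WT and KO library (points), with the geometric mean as a line. The means were 0.771 in WT and 1.19 in KO for Ly86, and 0.0145 and 0.0185 for the markers, with the highest WT library close to the lowest KO library in both panels.

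Cd180 lies across Mast4, a gene on the opposite strand, with which it shares 182 exon bases. Whether the authors counted by strand is not given in the sources used here. Reads in the shared bases could have been left out or given to the wrong gene. Along the longest Cd180 transcript, 0 of 2601 windows of 50 bases also occurred in another gene, on either strand. How many reads fell in the shared bases was not tested. Mast4 was at 95.5 to 104.2 CPM in WT and 97.7 to 118.4 CPM in KO, and was not called (log2 fold change -0.14, edgeR adjusted p = 0.649). Over the 6 libraries, the genes whose centred log2 CPM lay nearest to that of Cd180 were Pea15a and Bcl2l12, at root mean square distances of 0.0624 and 0.0759 among 9681 genes with a median distance of 0.368. Pea15a had a log2 fold change of -0.49 (edgeR adjusted p = 0.125) and Bcl2l12 one of -0.51 (edgeR adjusted p = 0.41), and neither was called.

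**Figure D3:**
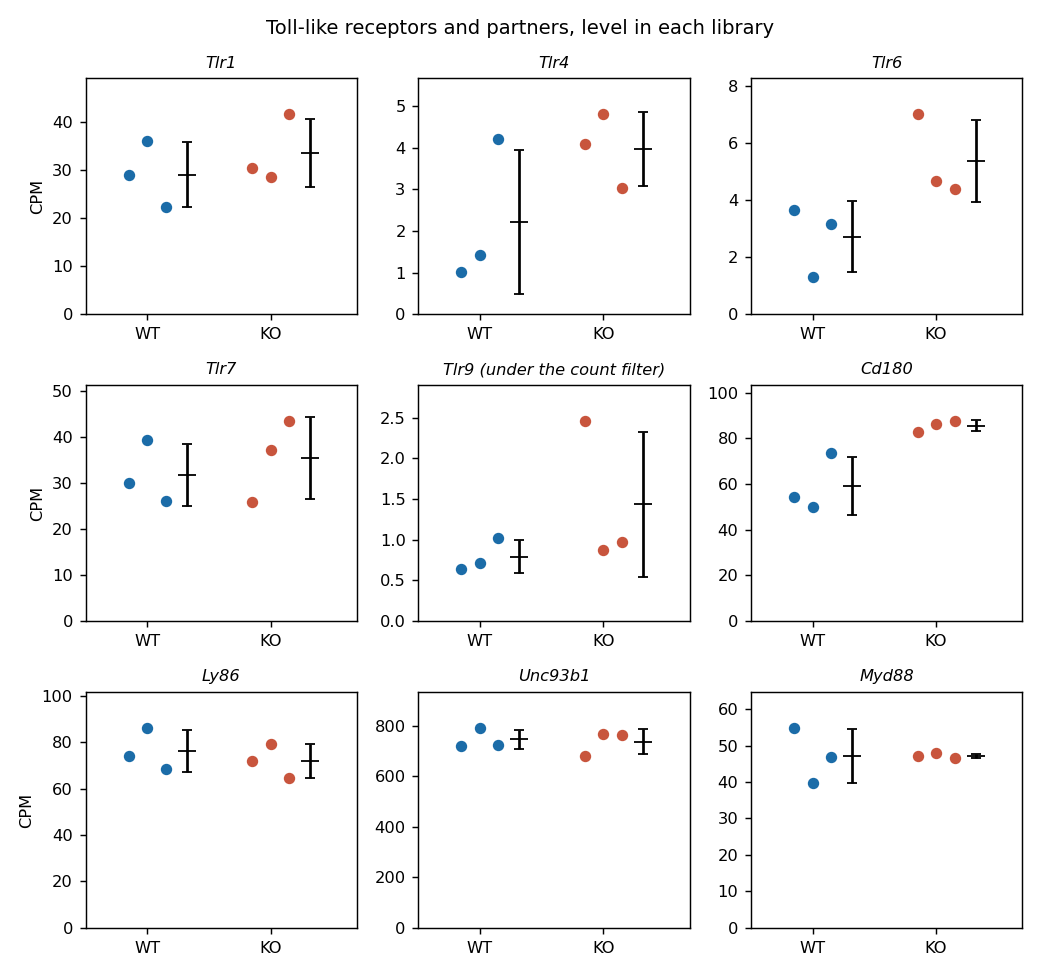
Level of each of the 9 genes in CPM (vertical axes, each from 0) in the 3 WT and 3 KO libraries (points), with the mean and SD beside them. Cd180 and Tlr6 are the genes whose groups do not overlap, with every WT library lower, and Tlr9 was under the count filter.

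Among all tested genes, 191 of 10514 (1.82%) were called, of which 137 (1.3% of those tested) were higher and 54 (0.514%) lower in WT. For the 9 genes, the counts were 1 lower and 0 higher of 8 tested. Genes with an unadjusted p under 0.05 made up 11.9% of all genes and 2 of the 8, Cd180 and Tlr6. Groups that did not overlap made up 16.7% of all genes, or 8.28% with WT as the lower group, and 2 of the 8, both lower in WT.

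None of the receptors at the cell surface was called. Tlr1, whose product binds bacterial lipopeptides together with TLR2, was at 28.9, 36.0 and 22.4 CPM in WT and 30.5, 28.6 and 41.6 CPM in KO. The groups overlapped, with means of 29.1 CPM ± 6.83 and 33.6 CPM ± 7.05 (SD, n = 3 each), and the log2 fold change of -0.21 had a 95% interval of -0.57 to 0.16 (edgeR adjusted p = 0.717). Tlr6, which pairs with TLR2 for other lipopeptides, had 40, 11 and 28 reads in WT and 77, 43 and 45 in KO. As levels these were 3.66, 1.31 and 3.18 CPM against 7.01, 4.69 and 4.39 CPM, so that each WT library was below each KO library. The log2 fold change of Tlr6 was -0.97 ± 0.44 (SE), with a 95% interval of -1.87 to -0.06, and it did not pass the test after adjustment (edgeR adjusted p = 0.375).

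Tlr4 (chromosome 4, 66827584 to 66930284, plus strand), the receptor for lipopolysaccharide, was counted with few reads, 11, 12 and 37 in WT and 45, 44 and 31 in KO. WT replicate 3 stood within the KO range and the other 2 WT libraries below it. The log2 fold change was -0.85 ± 0.54 (SE), and its 95% interval of -1.96 to 0.26 (edgeR adjusted p = 0.583) spans both a large decrease and a small increase. Ly96, which encodes MD-2, was at 2.47 CPM ± 0.781 in WT libraries and 2.90 CPM ± 1.24 in those of KO (SD, n = 3 each; edgeR adjusted p = 0.914). Cd14, which hands lipopolysaccharide to this complex, was under the count filter with 5 to 18 reads in a library, and Lbp was not in the table.

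The 2 endosomal receptors did not pass the test either. Tlr7 (chromosome X, 167304929 to 167330558, minus strand), the receptor for single-stranded RNA, was at 30.01, 39.4 and 26.1 CPM in WT and at 25.9, 37.2 and 43.5 CPM in KO. KO replicate 1 was the lowest of the 6 libraries and KO replicate 3 the highest. The means were 31.8 CPM ± 6.81 and 35.5 CPM ± 8.93 (SD, n = 3 each), and the log2 fold change was -0.16 with a 95% interval of -0.53 to 0.22 (edgeR adjusted p = 0.8). Tlr9 (chromosome 9, 106222598 to 106226883, plus strand), the receptor for DNA with unmethylated CpG, had 7, 6 and 9 reads in WT and 27, 8 and 10 in KO. Apart from KO replicate 1, its level lay between 0.64 and 1.02 CPM in all libraries. A fit without the count filter gave Tlr9 a log2 fold change of -0.86 with a 95% interval of -2.65 to 0.93 (edgeR adjusted p = 0.805). No difference was detected at these counts, and why Tlr9 had so few reads was not tested.

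Unc93b1 (chromosome 19, 3935186 to 3949340, plus strand), which carries the endosomal receptors out of the endoplasmic reticulum, was the most closely measured of the 9 genes. It was at 721, 791 and 725 CPM in WT and at 681, 767 and 764 CPM in KO, with the groups overlapping. The log2 fold change was 0.02 ± 0.07 (SE), and its 95% interval of -0.12 to 0.15 (edgeR adjusted p = 0.955) was narrower than that of any other of the 8 tested genes. Within a library, there were 19.7 to 26.7 reads of Unc93b1 per read of Tlr7 and Tlr9 together in WT and 17.2 to 24.1 in KO, a difference in mean log2 ratio of 0.19 (exact permutation p = 0.5, adjusted p = 0.5). Reads of Tlr7 per read of Tlr9 numbered 46.9, 55.0 and 25.6 in WT and 10.5, 42.6 and 44.6 in KO, a difference of 0.57 (exact permutation p = 0.5, adjusted p = 0.5), which became -0.11 without KO replicate 1.

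Genes that help these receptors fold, move and mature were taken as a list of 19, of which 18 were in the table and 16 were tested. One gene of the 16, Slc15a4, was called, lower in WT, and 0 were called higher. Of all tested genes, 0.514% were called lower and 1.3% higher in WT. Slc15a4 (chromosome 5, 127595664 to 127632897, minus strand) encodes a transporter of histidine and peptides in the endolysosome and is known to be needed for responses through TLR7 and TLR9. It was at 273.1, 278.6 and 298.2 CPM in WT and 348.0, 357.1 and 354.7 CPM in KO, so that the groups were well apart. The means were 283 CPM ± 13.2 and 353 CPM ± 4.77 (SD, n = 3 each), a log2 fold change of -0.32 ± 0.07 (SE) with a 95% interval of -0.46 to -0.18 (edgeR adjusted p = 0.0111). The call held in all 9 alternatives with 6 libraries and was lost in 3 of the 6 fits without 1 library, with an edgeR adjusted p of 0.0675 without WT replicate 1, 0.0584 without KO replicate 2 and 0.0701 without KO replicate 3. Slc15a4 shares 427 exon bases with Gm43474 on the opposite strand, so that reads in those bases are uncertain in the same way as for Cd180. Its transcript was not searched for shared windows.

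None of the other 15 trafficking genes was called. The list, Slc15a4 included, had a median log2 fold change of -0.05 and 10 of 16 values below 0, against a median of -0.003 and 50.4% below 0 over all genes. Hsp90b1, the chaperone gp96 on which most of the receptors depend for folding, was at 874 CPM ± 41.95 in WT libraries and 756 CPM ± 46.2 in those of KO (SD, n = 3 each; log2 fold change 0.21, edgeR adjusted p = 0.115). Its groups did not overlap, and it was called by DESeq2 and with a replicate block. Pld4, an exonuclease of the endolysosome that trims ligands of TLR9, was at 77.7 CPM ± 5.50 and 90.6 CPM ± 5.82 (SD, n = 3 each; log2 fold change -0.22, edgeR adjusted p = 0.375), and its groups did not overlap either. Ctsl, a protease of the endolysosome that cuts the endosomal receptors, had the lowest log2 fold change of the list, -0.37 (edgeR adjusted p = 0.653).

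The regions before the RefSeq start sites of Cd180 and Slc15a4, the pair of genes called above, are printed because they are what an assay of their control would begin from. They are 250 bases each on GRCm38.p6, 5′ to 3′ in the direction of transcription, at chr13:102693308-102693557 on the plus strand and at chr5:127617393-127617642 on the minus strand, with matches to the searched motifs in capitals. For Slc15a4 the RefSeq start lies inside the span that GENCODE gives the gene, so that its region is upstream of the RefSeq start alone.
Cd180 upstream region: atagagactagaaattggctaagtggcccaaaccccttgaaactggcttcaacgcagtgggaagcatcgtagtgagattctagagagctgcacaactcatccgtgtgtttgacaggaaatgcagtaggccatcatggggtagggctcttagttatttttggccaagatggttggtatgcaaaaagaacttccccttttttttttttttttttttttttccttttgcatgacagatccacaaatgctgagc
Slc15a4 upstream region: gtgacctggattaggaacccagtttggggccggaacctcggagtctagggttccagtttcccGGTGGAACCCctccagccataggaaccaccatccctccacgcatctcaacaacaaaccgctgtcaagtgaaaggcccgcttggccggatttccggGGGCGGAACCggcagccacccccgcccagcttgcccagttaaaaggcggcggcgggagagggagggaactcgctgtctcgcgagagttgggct
The motifs searched on both strands were the full cAMP response element TGACGTCA, its core TGACG, which the full element contains, the octamer ATGCAAAT, the PU.1 core GAGGAAG and the loose κB pattern GGGNNNNNCC. Of the same 250 bases before each of 32851 RefSeq starts, 1.55% held TGACGTCA, 17.8% TGACG, 1.6% the octamer, 10.6% GAGGAAG and 45.8% the κB pattern. The Cd180 region held none of these letters. The Slc15a4 region held the κB pattern on each strand, 93 and 188 bases before the start, a pattern that nearly as many regions hold as lack. Among the other members, Tlr9 held the octamer and GAGGAAG, 72 and 112 bases before its start, Tlr6 held TGACG and the κB pattern at 73 and 99 bases, Tlr1 held GAGGAAG at 23 bases, and Ly86 and Myd88 held none. Tlr4, Tlr7 and Unc93b1 had no entry among the regions. A match is a description of letters, and its absence from this window says nothing about a factor.

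**Figure D4:**
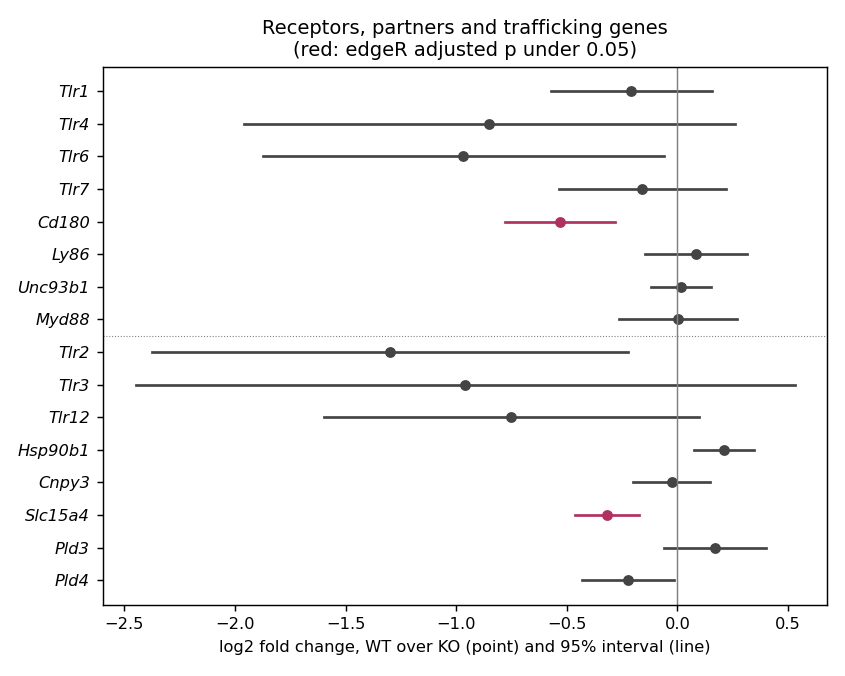
Log2 fold change, WT over KO (points), with its 95% interval (lines), for the 8 tested members (above the dotted line) and for 8 other receptor and trafficking genes, red where the edgeR adjusted p was under 0.05. The intervals of Unc93b1 and Slc15a4 are narrow and those of Tlr2, Tlr3, Tlr4 and Tlr6 wide.

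Myd88 (chromosome 9, 119335934 to 119341411, minus strand) was at 54.8, 39.8 and 46.9 CPM in WT and at 47.1, 47.9 and 46.7 CPM in KO. The KO libraries fell within the WT range, and both groups had a mean of 47.2 CPM, with an SD of 7.49 in WT and 0.597 in KO (n = 3 each). The log2 fold change was 0.00 with a 95% interval of -0.26 to 0.27 (edgeR adjusted p = 0.996). Myd88 shares 290 exon bases with Acaa1a on the opposite strand, which was at 17.8 to 31.6 CPM in WT and 20.3 to 33.9 CPM in KO.

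The genes downstream of the receptors were described as lists. For comparison, 1.82% of all tested genes were called and 11.9% had an unadjusted p under 0.05 in edgeR. Of 22 other adaptors and kinases, among them the IRAK, TRAF and IKK families, 21 were tested and 0 were called, while 1 had an unadjusted p under 0.05 in edgeR. That gene was Ticam1, the adaptor TRIF, at 6.996 CPM ± 0.981 in WT libraries and 10.8 CPM ± 2.87 in those of KO (SD, n = 3 each; log2 fold change -0.63, edgeR adjusted p = 0.344). The 5 interferon regulatory factors all had values below 0 (median log2 fold change -0.06), and 0 were called, with 1 at an unadjusted p under 0.05 in edgeR. This one was Irf8, a factor that also shapes B cell development, at 977 CPM ± 159 and 1175 CPM ± 110 (SD, n = 3 each; log2 fold change -0.27, edgeR adjusted p = 0.402, or 0.00882 with a replicate block). Of 10 brakes on the pathway, 9 were tested, 0 were called and 2 had an unadjusted p under 0.05 in edgeR, with the smallest p for the deubiquitinase Cyld, at 221 CPM ± 15.1 and 190 CPM ± 3.39 (SD, n = 3 each; log2 fold change 0.21, edgeR adjusted p = 0.219).

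Of 14 early target genes of the pathway, 12 were tested and 4 were called, 1 higher and 3 lower in WT. The share called over all tested genes was 1.82%, with 1.3% higher and 0.514% lower in WT. Other receptors of the B cell also induce these genes, and their change was already known when the list was drawn up, so that it is no independent evidence. Cd86, a costimulatory ligand for T cells, was at 66.2, 78.0 and 68.5 CPM in WT against 42.6, 45.1 and 51.4 CPM in KO (log2 fold change 0.61, edgeR adjusted p = 0.0029). Nfkbia, the NF-κB inhibitor and early feedback target, was lower in WT, at 2241 CPM ± 259 against 3007 CPM ± 174 (SD, n = 3 each; log2 fold change -0.42, edgeR adjusted p = 0.000805). Tnf had 8.77 CPM ± 1.29 against 16.8 CPM ± 2.94 and Cd69, an early activation antigen, 182 CPM ± 23.0 against 244 CPM ± 35.8 (SD, n = 3 each), and their log2 fold changes were -0.94 (edgeR adjusted p = 0.0304) and -0.42 (edgeR adjusted p = 0.0423). Without 1 library, Cd86 and Nfkbia stayed called in 6 of 6 fits, Tnf in 1 and Cd69 in 2, with the highest edgeR adjusted p at 0.239 for Tnf and 0.216 for Cd69. With limma-voom on all 6 libraries, Tnf also missed the threshold (limma adjusted p = 0.0516).

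**Figure D5:**
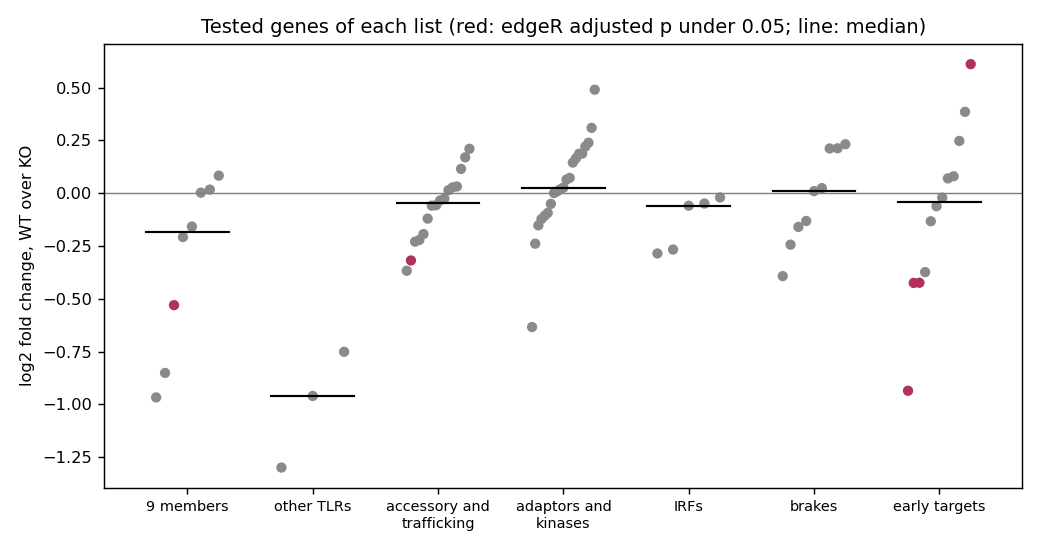
Log2 fold change, WT over KO, of each tested gene (points, red where the edgeR adjusted p was under 0.05) in the list of members and in the 6 pathway lists, with the list's median as a line. Most points lie near 0, the called genes are 1 member, 1 trafficking gene and 4 early targets, and the other Toll-like receptors all lie below 0.

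The direction of the receptors themselves was then set side by side over the whole family. Of 12 Toll-like receptor genes, 9 were in the table, without Tlr5, Tlr8 and Tlr11, and 7 passed the count filter, without Tlr9 and Tlr13. All 7 had a log2 fold change below 0, with a median of -0.85, and 0 of 7 were called, while 2 had an unadjusted p under 0.05 in edgeR. Such a p was found for 11.9% of all tested genes. In 3 of the 7 the groups did not overlap, with WT lower, against 8.28% of all tested genes. Of these 7 receptors, DESeq2 gave an adjusted p for Tlr1 and Tlr7 alone, 0.779 and 0.843 (neither was called). Among the 1867 tested genes with a mean of 10 to 50 counts, the range that holds 5 of these 7 receptors, 50.9% were below 0 and the median was -0.01. Tlr2, the shared partner of TLR1 and TLR6, was at 1.92, 0.596 and 3.52 CPM in WT and 7.01, 3.71 and 4.19 CPM in KO, so that its groups did not overlap (log2 fold change -1.30, 95% interval -2.38 to -0.22, edgeR adjusted p = 0.28). Tlr12, a sensor of profilin, was at 2.94 CPM ± 0.286 and 4.96 CPM ± 0.685 (SD, n = 3 each), again without overlap (edgeR adjusted p = 0.499). Tlr3, the sensor of double-stranded RNA, overlapped between groups (log2 fold change -0.96, edgeR adjusted p = 0.672), and Tlr13 had 26 reads in all. A fit without the count filter gave Tlr13 a log2 fold change of 0.17, with a 95% interval of -2.75 to 3.09 (edgeR adjusted p = 0.983). In that fit 8 of the 9 receptor genes were below 0. A gene can pass the count filter through 1 group alone, and this count of directions was not planned. Summed over the 9 receptor genes in the table, the level was 63.9 to 84.8 CPM in WT and 82.9 to 106.2 CPM in KO, and these ranges met. Without KO replicate 3, the log2 fold change of Tlr7 rose to 0.02 and 6 of the 7 remained below 0. The 7 myeloid markers went the other way by value, with all 7 log2 fold changes above 0, a median of 0.53 and 0 called, and their part in these values was not tested.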

How the data were processed

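The authors sorted the cells, made 3′ tag libraries, read 50 bases single-end, aligned them with STAR to mm10 and counted reads per gene with HTSeq; the deposited values are raw counts. Versions, annotation and the strand setting are not given in the sources used here. Titles gave the groups, 3 libraries each, and no sample column was left unused. Pairs of libraries within a group differed by more than counting noise (chi-square per degree of freedom 6.89 to 10.9).

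Counts were tested in R 4.3.3 with edgeR 4.0.16 (filterByExpr, TMM factors, robust quasi-likelihood F test, two-sided) and Benjamini-Hochberg adjustment over 10514 genes at 0.05. CPM were computed here from the deposited counts over TMM-adjusted library sizes, so that rarely counted genes carry large counting error. SEs and 95% intervals came from the same fit. The code was tested on simulated data. Ratios of reads were compared by exact permutation. DESeq2 1.42.0, limma 3.58.1 and other scalings, filters and left-out libraries served as alternatives. Positions are from GENCODE M21 (mm10), upstream regions from RefSeq. The members and lists were chosen with earlier results of these data known. The genes named were the members, called pathway genes, the smallest p in each pathway list without a call, and the pair nearest to Cd180. Hsp90b1, Pld4, Ctsl, Ly96, Cd14, Cd79a, Cd79b, Pax5, Gzma, Pacsin1, Xbp1, Dtx1, Hbb-bs, Mast4, Acaa1a and the further receptors were named after their values were seen. Nrros was looked up as Lrrc33 and Hbb-bs as Beta-s. One follicular B cell marker is not reported by name here.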

Additional observations from a re-analysis of the deposited data

How the results depend on the processing

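Over all genes, 191 calls became 170 to 281 in the fits with 6 libraries and 91 (without KO replicate 3) to 183 in those without 1 library. Among the members the count was 1 in the 9 fits with 6 libraries and 0 to 1 without 1 library. The pathway lists held 5 calls, 8 with a replicate block, 6 with DESeq2, 4 with limma-voom, which ends the Tnf call, and 2 to 4 without 1 library. Signs turned only for members near 0. Without 1 library, the log2 fold change ranged from -0.34 to 0.015 for Tlr7 (above 0 without KO replicate 3), from -0.012 to 0.15 for Ly86 (below 0 without WT replicate 2), from -0.037 to 0.044 for Unc93b1 (below 0 without WT replicate 2 or KO replicate 1) and from -0.12 to 0.11 for Myd88 (below 0 without WT replicate 1 or KO replicate 3). Myd88 also turned to -0.0062 with upper-quartile factors, to -0.0038 with library totals alone and to -0.0078 with a replicate block. The log2 ratio of Tlr7 to Tlr9 ranged from -0.11 to 0.93 without 1 library. Restricted to a mean of at least 50 counts, 2 receptor genes were left, both below 0. The cause of these changes was not tested, beyond the fewer libraries or genes that each setting leaves.

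Replicate numbers occur in both groups, but the correlation of deviations between libraries of the same number was 0.0498, 0.0136 and 0.0432, so that the numbers were not taken to pair them, although each library correlated best with its own number. A replicate block raised the calls from 191 to 281, gave Cd180 a log2 fold change of -0.55 (edgeR adjusted p = 0.00585), and added Hsp90b1, Irf1 and Irf8. DESeq2 gave no adjusted p for the 3 least counted members, Tlr4, Tlr6 and Tlr9. Low counts limit Tlr4, Tlr6 and Tlr9 most, with at most 77 reads in a library. The edgeR p-values rest on the spread between these libraries, drawn toward that of other genes of like level. Cd180 was thus tested with 25.89 total degrees of freedom and with 1 dispersion for both groups.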
